A study of Equus caballus with 4 samples.

Results

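The genes described here encode proteins of the Z-disc, the plate that borders each sarcomere of striated muscle, together with the giant proteins titin and nebulin that run from it. They are TTN, NEB, ACTN2, ACTN3, MYOZ1, MYOZ2, TCAP, LDB3, MYOT and DES, a list of symbols chosen with earlier results of these data known. They were looked up among the noncontrol probes of a horse expression array by the gene name the array files give. That name was found for 7 of the 10 genes, on 10 probes. The other 3, ACTN2, TTN and LDB3, carry only a transcript identifier as their name, and their 4 probes were recognised by the description text of the files, so that all 10 genes were represented, by 14 of the 43603 noncontrol probes and among 14614 named genes. The probes named by description are counted apart from the others.

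Satellite cells are the resident stem cells of skeletal muscle, which divide, differentiate and fuse into multinucleated myotubes. The cultures came from the semitendinosus muscle of 6-month-old colts and were kept in differentiation medium with 2% horse serum. Gamma-oryzanol (GO), a plant compound mixture sold as a feed and food supplement, was added after 2 days at 125 nM for 24 h, and control cells received its vehicle, DMSO at 0.04 µl/ml, so all cells were collected on day 3 of differentiation. RNA of GO-treated cells was labelled with Cy5 and RNA of control cells with Cy3, and both were hybridized together on each of 4 arrays of 1 slide. The labels call the arrays biological replicates. The methods state that 1 cell line with the best viability and fusion was chosen, and do not say whether the arrays came from separate horses or separate cultures, so a p-value here measures only the spread between these 4 samples, which may be technical. The dyes were never swapped, and an effect of dye on a probe therefore cannot be told apart from an effect of GO. In bulk RNA, fewer differentiated cells and less RNA per differentiated cell cannot be told apart either.

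In the sarcomere, alpha-actinin cross-links the ends of thin filaments that meet at the Z-disc. Titin is anchored there and reaches to the M-band in the middle of the sarcomere, nebulin lies along the thin filament, and telethonin (TCAP) caps the titin ends. Myozenins, myotilin and LDB3 bind alpha-actinin at the Z-disc, and desmin intermediate filaments tie neighbouring Z-discs to each other and to the membrane. These proteins accumulate as myoblasts differentiate and assemble their first myofibrils.

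The probes are 60-base oligonucleotides, and their positions are those of the files, on the EquCab1 build. The 5 shown here carry most of what follows: the probes for ACTN2, NEB and DES, and both probes for ACTN3, which differed in their result. Those for ACTN2, ACTN3 and DES cover a stretch of genome longer than the probe and so join exons of a spliced transcript, whereas the NEB probe lies within 1 uninterrupted stretch. The letters are all in lower case because no part of them is singled out.
ACTN2, base 1629 of ENSECAT00000011002, chr1:72050345-72051916, minus strand: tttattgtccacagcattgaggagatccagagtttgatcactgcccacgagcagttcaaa
ACTN3, base 1841 of NM_001163869, chr12:16920204-16920731, plus strand: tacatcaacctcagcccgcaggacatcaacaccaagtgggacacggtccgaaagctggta
ACTN3, base 2538 of NM_001163869, chr12:16922484-16922624, plus strand: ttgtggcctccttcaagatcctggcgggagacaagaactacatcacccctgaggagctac
NEB, base 20818 of ENSECAT00000024243, chr18:22089224-22089283, minus strand: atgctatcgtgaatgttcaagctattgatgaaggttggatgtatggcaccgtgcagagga
DES, base 1359 of ENSECAT00000014439, chr6:8935739-8936002, plus strand: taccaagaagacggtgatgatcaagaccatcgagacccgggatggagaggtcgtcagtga

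NEB, ACTN3, MYOT and DES were lower in GO-treated than in control cells, as was ACTN2 among the genes named by description. Their mean log2 ratios lay between -0.67 and -0.56, which is a signal lower by 1.47-fold to 1.60-fold. MYOZ2 passed the adjusted p at a fold of 1.21, under the fold required, and TCAP had a fold of 1.32 but did not pass the adjusted p. MYOZ1 and TTN passed neither threshold, and LDB3 was too dim to be tested. Calls needed a fold of 1.3 or more (log2 0.38 in size) and an adjusted p no higher than 0.05, from limma's test of the 4 log2 ratios against 0. The Benjamini-Hochberg adjustment ran over 26831 probes, those that all 4 arrays showed well above background in the control channel or in the GO channel. Of the 10 probes named by symbol, all were tested, 5 were called lower and 0 higher. Over all tested probes 5.61% were called lower and 3.33% higher.

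Counted by gene, with the brightest probe of each, 4 of the 7 genes named by symbol were lower and 0 were higher, beside 5.42% lower and 3.31% higher among the 9519 genes tested. With the 3 genes named by description, 9 of 10 genes were tested and 5 were lower. The median log2 ratio of the 10 probes was -0.53, where the median of all tested probes was 0.00. All 10 means were below 0, and 9 of the 10 probes were lower on all 4 arrays, a pattern seen in 21.5% of all tested probes. On 5 of the 10 probes the GO signals of all arrays lay below the control signals of all arrays, as they did on 5.39% of all tested probes. Without array 2 the calls fell from 5 to 2 probes and from 4 to 2 genes, NEB and MYOT being the genes still called. A plain one-sample test called 0 of the 10 probes, with 6 at an unadjusted p under 0.05. The fit that ignores which channels shared an array also called 0, with 5 at an unadjusted p under 0.05, and so did limma without the filter on dim probes, with 6. Shares of all probes called under these fits were not counted, so the members cannot be set against them.

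**Figure D1:**
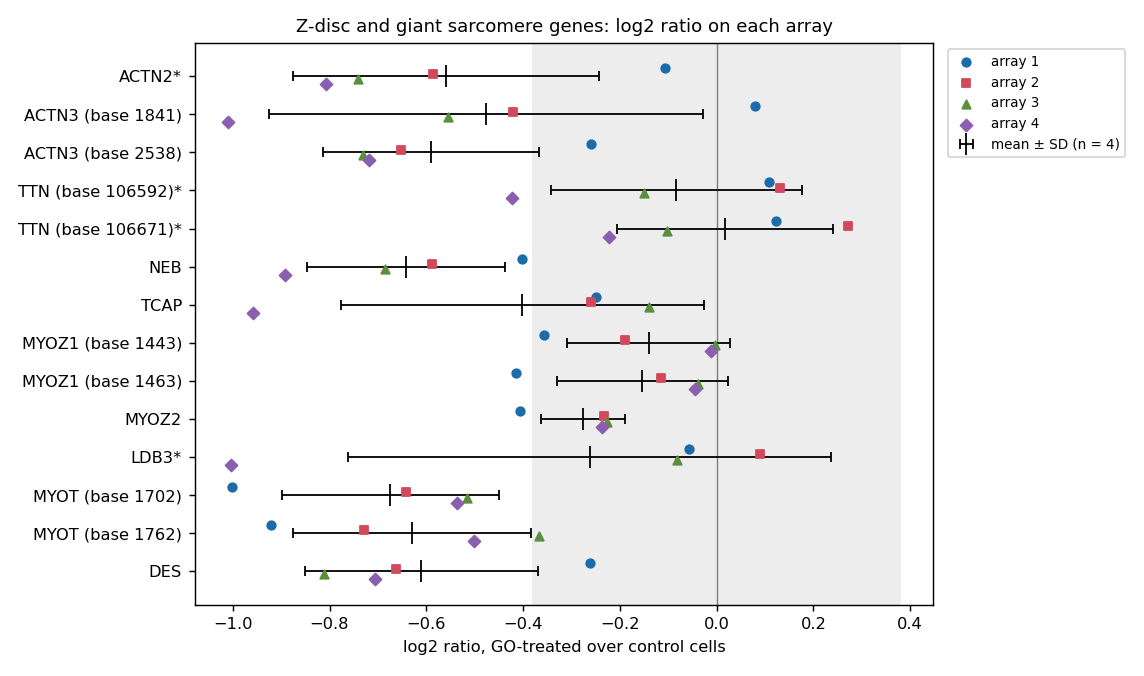
Log2 ratio (GO over control) for each of the 14 probes (rows, with the base of the transcript at which the probe starts where a gene has 2 probes; an asterisk marks genes named by description). Coloured symbols are the 4 arrays, the black bar is the mean ± SD (n = 4), and the grey band spans changes smaller than 1.3-fold; the NEB, MYOT and DES means lie left of the band at -0.67 to -0.61, and the TTN means lie close to 0.

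ACTN3 encodes the alpha-actinin of fast muscle fibers. The signal of its brighter probe, at base 2538, was 11429, 17133, 14525 and 12172 in the control channel of arrays 1 to 4 and 9550, 10905, 8755 and 7396 in the GO channel. Each GO value lay below all 4 control values. The log2 ratios were -0.26, -0.65, -0.73 and -0.72, with a mean of -0.59 ± 0.22 (SD, n = 4; adjusted p = 0.0106, limma with Benjamini-Hochberg adjustment). Array 1 stood apart from the other arrays, with the smallest fall, and without array 2 the adjusted p was 0.0531 (limma), no longer a call.

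The probe at base 1841 of ACTN3 starts 2280 bases upstream in the genome. Its log2 ratios were 0.08, -0.42, -0.56 and -1.01, with a mean of -0.48 ± 0.45 (SD, n = 4) that did not pass the adjusted p (0.0852, limma with Benjamini-Hochberg adjustment). Array 1 was the exception again, with a signal of 1526 in the control and 1613 in the GO channel. Without array 1 the mean was -0.66 and the adjusted p 0.0343 (limma), a call, whereas without array 4 the mean was -0.30 and the adjusted p 0.177. Without array 2 or array 3 the adjusted p of this ACTN3 probe was 0.184 and 0.209 (limma). The ratios of the ACTN3 probes differed by 0.11 ± 0.28 (SD, n = 4 arrays), the base 1841 probe being the less negative on arrays 1 to 3 and the more negative on array 4.

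ACTN2 encodes the alpha-actinin present in all striated muscle fibers. Its signal was 1018, 1562, 1341 and 1122 in control cells and 946, 1041, 802 and 641 in GO-treated cells. Control and GO values overlapped, since the lowest control value (array 1) was below the highest GO value (array 2), although GO was lower within every array. ACTN2 had log2 ratios of -0.11, -0.59, -0.74 and -0.81 and a mean of -0.56 ± 0.32 (SD, n = 4; adjusted p = 0.0259, limma with Benjamini-Hochberg adjustment). The call of ACTN2 was lost without array 2, 3 or 4, with adjusted p = 0.0922, 0.0906 and 0.0621 (limma).

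The log2 ratios of the ACTN3 probe at base 2538 and of ACTN2 differed by -0.03 ± 0.10 (SD, n = 4) on the same arrays. The actinins of nonmuscle cells, ACTN1 and ACTN4, which anchor actin at adhesions and stress fibers, had mean log2 ratios of -0.21 ± 0.09 and -0.11 ± 0.25 (SD, n = 4; adjusted p = 0.0614 and 0.459, limma with Benjamini-Hochberg adjustment). The same ACTN3 probe was lower than ACTN1 by 0.38 ± 0.22 and lower than ACTN4 by 0.48 ± 0.06 (mean fall in log2 ratio, SD, n = 4), each on 4 of 4 arrays. The ACTN3 probe at base 1841 was not lower than ACTN1 on array 1, at 0.08 against -0.16. A second ACTN1 probe had a mean log2 ratio of -0.04. ACTN2 was lower than ACTN4 on 4 of 4 arrays and lower than ACTN1 on 3 of 4. With 4 arrays an exact two-sided sign-flip permutation test gives at best a p of 0.13. That was the value for each difference seen on 4 of 4 arrays among the 10 gene pairs compared (0.179 after Benjamini-Hochberg adjustment). The 10 pairs, here and below, were chosen after the ratios were seen, so these p-values are no independent evidence of a difference. ACTN4 was named by description.

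NEB and TTN encode the giant proteins. NEB, whose product spans the thin filament, gave signals of 1743, 1821, 1448 and 1507 in control cells and 1319, 1211, 900 and 812 in GO-treated cells. Every GO value lay below every control value. From array 1 to array 4 its log2 ratio was -0.40, -0.59, -0.69 and -0.89, with a mean of -0.64 ± 0.20 (SD, n = 4; adjusted p = 0.00702, limma with Benjamini-Hochberg adjustment), and NEB was called with any 1 array left out.

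TTN has a pair of probes, which lie next to each other near the end of the transcript, at bases 106592 and 106671 of ENSECAT00000016948. The brighter, at base 106671, gave signals of 4663, 2692, 2833 and 2924 in control cells and 5079, 3251, 2638 and 2505 in GO-treated cells. On the log2 scale its ratios were 0.12, 0.27, -0.10 and -0.22, above 0 on arrays 1 and 2 and below 0 on arrays 3 and 4. The mean was 0.02 ± 0.22 (SD, n = 4; adjusted p = 0.915, limma with Benjamini-Hochberg adjustment). The probe at base 106592 gave 0.11, 0.13, -0.15 and -0.42, the same signs, with a mean of -0.08 ± 0.26 (SD, n = 4; adjusted p = 0.601, limma). With 1 array left out the means of the TTN probes lay between -0.15 and 0.10, on either side of 0. The difference of NEB from TTN was negative on 4 of 4 arrays, with a mean of -0.66 ± 0.15 (SD, n = 4) and an exact sign-flip p of 0.13, the lowest that 4 arrays allow, so a difference between them is not established by that test. Titin transcripts that lack this end of the gene would not be seen by either probe.

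**Figure D2:**
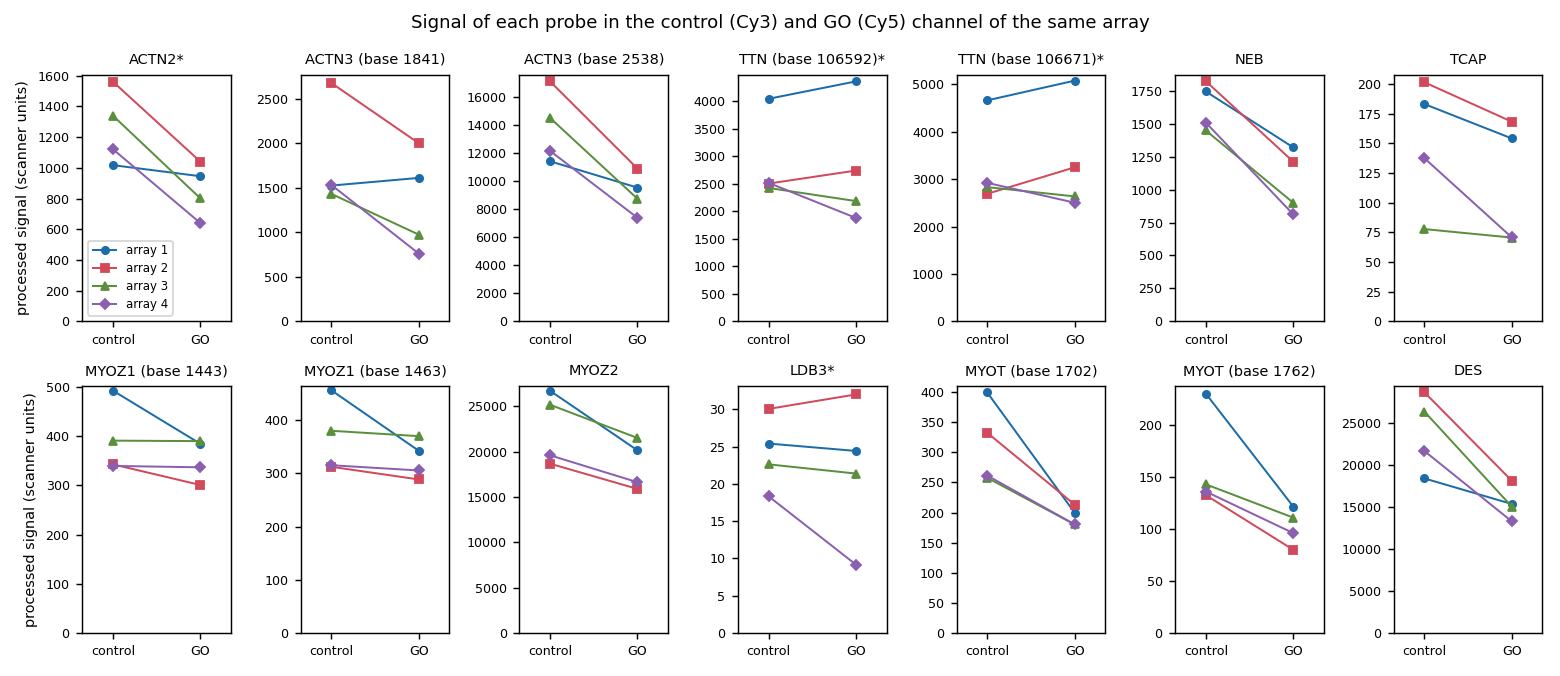
Processed signal (scanner units, axis from 0) of each of the 14 probes in the control channel (Cy3) and the GO channel (Cy5), with a line joining the channels of an array. For ACTN3 (base 2538), NEB, both MYOT probes and DES the 4 GO values lie below the 4 control values (5.39% of all tested probes), and for the other probes they overlap.

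Among the proteins that bind alpha-actinin, myotilin (MYOT) had the largest fall. The brighter of its probes, at base 1702 of ENSECAT00000022238, gave signals of 400, 333, 258 and 261 in control cells and 200, 213, 180 and 180 in GO-treated cells. The GO values lay below all control values. Its log2 ratios were -1.0, -0.64, -0.52 and -0.54, with a mean of -0.67 ± 0.22 (SD, n = 4; adjusted p = 0.00724, limma with Benjamini-Hochberg adjustment). The adjoining probe at base 1762 had ratios of -0.92, -0.73, -0.37 and -0.50 and a mean of -0.63 ± 0.25 (SD, n = 4; adjusted p = 0.0106, limma). Both probes fell most on array 1. With normexp background correction and loess the falls were smaller, -0.45 and -0.36, and the second was then under the fold threshold. The second was also not called without array 2 (adjusted p = 0.0531, limma).

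MYOZ1 and MYOZ2 encode myozenins, which bind calcineurin as well as alpha-actinin, MYOZ1 chiefly in fast and MYOZ2 in slow and cardiac muscle. MYOZ2 gave signals of 26726, 18678, 25183 and 19603 in control cells and 20151, 15888, 21515 and 16627 in GO-treated cells. GO was lower within each array, but the channels overlapped across arrays. On the log2 scale this was -0.41, -0.23, -0.23 and -0.24, with a mean of -0.28 ± 0.09 (SD, n = 4; adjusted p = 0.0282, limma with Benjamini-Hochberg adjustment), a fold of 1.21 and thus not called. With median centring of background-subtracted signals in place of the deposited dye normalization, and so without lowess, its mean was -0.05 (adjusted p = 0.71, limma). With normexp and loess its mean was -0.30. Which step of the processing made this difference was not tested.

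MYOZ1 has probes at bases 1443 and 1463 of ENSECAT00000017694 that share 40 bases. The first gave signals of 493, 343, 391 and 340 in control cells and 385, 301, 390 and 337 in GO-treated cells. The channels were nearly equal on arrays 3 and 4, and GO was lower on arrays 1 and 2. The mean log2 ratio was -0.14 ± 0.17 for the first and -0.15 ± 0.18 for the second probe (SD, n = 4; adjusted p = 0.241 and 0.218, limma with Benjamini-Hochberg adjustment). Without array 1 both MYOZ1 means were -0.07. MYOT was lower than MYOZ2 by 0.40 ± 0.14 (mean fall in log2 ratio, SD, n = 4), and MYOZ2 was lower than MYOZ1 by 0.14 ± 0.10, each on 4 of 4 arrays (exact sign-flip p = 0.13).

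TCAP, the titin cap, was dim and uneven. Its signal was 183, 202, 77.8 and 138 in control cells and 154, 168, 70.7 and 70.8 in GO-treated cells. The log2 ratios were -0.25, -0.26, -0.14 and -0.96, so that array 4 carried much of the mean of -0.40 ± 0.38 (SD, n = 4; adjusted p = 0.0887, limma with Benjamini-Hochberg adjustment). Without array 4 the mean was -0.22.

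LDB3, a PDZ and LIM domain protein that holds alpha-actinin in the Z-disc, was close to background. Its probe was well above background on 3 arrays in the control and on 2 in the GO channel, so it was not tested. The log2 ratios were -0.06, 0.09, -0.08 and -1.0, and the GO signal on array 4 was 9.15 against 18.3 in the control channel. The other arrays had ratios near 0.

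DES encodes desmin, the muscle-specific intermediate filament protein. Its signal was 18381, 28634, 26339 and 21643 in control cells and 15337, 18101, 15018 and 13262 in GO-treated cells. All GO values lay below all control values. DES had log2 ratios of -0.26, -0.66, -0.81 and -0.71 and a mean of -0.61 ± 0.24 (SD, n = 4; adjusted p = 0.0113, limma with Benjamini-Hochberg adjustment). Without lowess the mean was -0.37, just under the fold threshold, and without array 2 the adjusted p was 0.0545 (limma). Vimentin (VIM), the intermediate filament protein of mesenchymal cells and myoblasts, had a mean log2 ratio of -0.10 ± 0.11 (SD, n = 4; adjusted p = 0.328, limma), and the difference of DES from VIM was -0.51 ± 0.32, negative on 4 of 4 arrays (exact sign-flip p = 0.13). On array 1 that difference was only -0.04.

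The genes also differed in which arrays had the lowest ratio. ACTN2, both ACTN3 probes, NEB and DES had their smallest change on array 1, whereas MYOT, MYOZ1 and MYOZ2 had their lowest ratio there. ACTN2, NEB, TCAP, LDB3, TTN and the ACTN3 probe at base 1841 were lowest on array 4. The control signals differed as well: DES, ACTN2 and the ACTN3 probe at base 2538 were brightest in control cells on array 2 and dimmest on array 1, while MYOT, both myozenins and TTN were brightest in control cells on array 1. Signals were dye-normalized within an array and not between arrays, and the median control signal of the tested probes was 389 to 456. These orders are a description of 4 arrays.

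**Figure D3:**
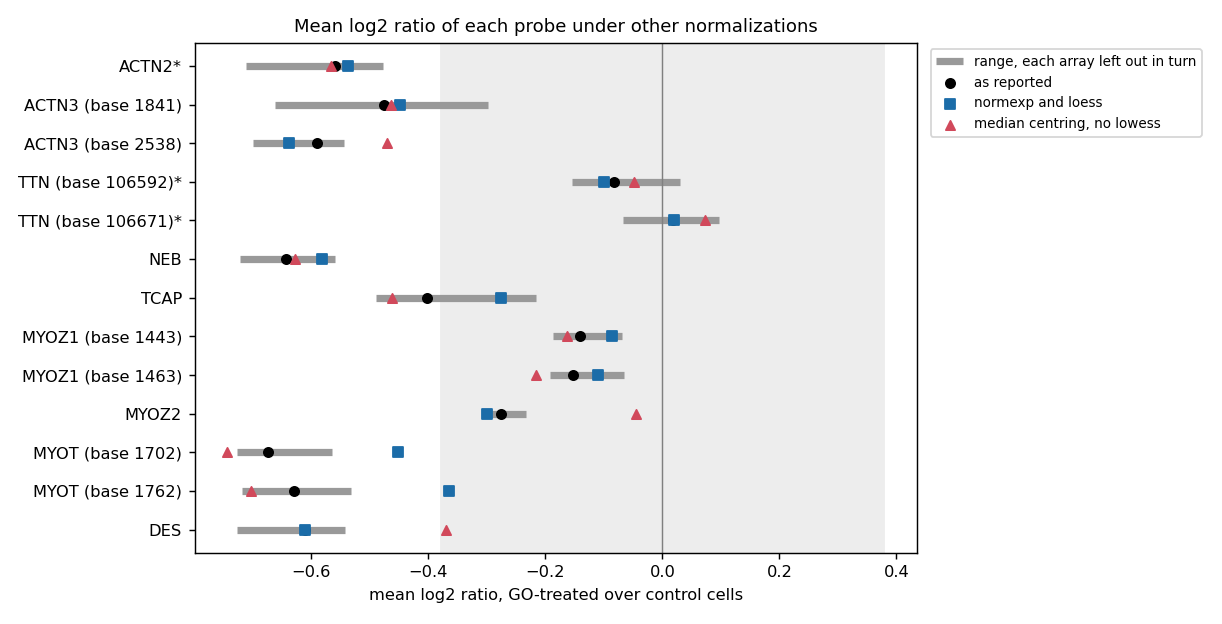
Mean log2 ratio (GO over control) for the 13 tested probes as reported (black), after normexp background correction with loess (blue) and with median centring in place of lowess (red), with the grey line spanning the means when each array is left out in turn. The grey band spans changes smaller than 1.3-fold; DES moves from -0.61 to -0.37 and MYOZ2 from -0.28 to -0.05 without lowess, and no probe named by symbol crosses 0.

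Proteins that work with the Z-disc were examined as lists, chosen with earlier results of these data known. Counts take the brightest probe of a gene and stand beside 5.42% lower and 3.31% higher among all tested genes. Of 21 tested Z-disc partners 4 were lower and 1 was higher, with a median log2 ratio of -0.27. Without array 1 these counts were 7 lower and 0 higher. NEXN was not counted, since its brightest probe (-0.34) was under the fold threshold, although its other probe (-0.40) was called lower. ANKRD1 (-0.67 ± 0.07) and ANKRD2 (-0.56 ± 0.17), stress-responsive ankyrin repeat proteins that bind titin, PDLIM3 (-0.50 ± 0.07), an actinin-binding PDZ and LIM domain protein, and XIRP2 (-0.47 ± 0.07), an actin-binding Xin repeat protein, fell (log2 ratio, SD, n = 4; adjusted p = 0.00262 to 0.00791, limma with Benjamini-Hochberg adjustment). PDLIM7, which also has PDZ and LIM domains, rose by 0.48 ± 0.35 (SD, n = 4; adjusted p = 0.0461, limma). MYOZ3, the third myozenin, had log2 ratios of -0.002, 1.06, -0.02 and 0.91, near 0 on arrays 1 and 3 and high on arrays 2 and 4, and was not called (mean 0.49 ± 0.58, SD, n = 4; adjusted p = 0.137, limma).

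Of 10 tested M-band and myosin-binding genes 6 were lower and 0 higher, with a median of -0.51. They were MYOM2 (-0.71 ± 0.19) and MYOM3 (-0.52 ± 0.11), the myomesins that cross-link thick filaments at the M-band, MYBPC2 (-0.55 ± 0.15), the fast myosin-binding protein C, and the muscle ring finger proteins TRIM63 (-0.77 ± 0.18), TRIM55 (-0.52 ± 0.18) and TRIM54 (-0.51 ± 0.23; log2 ratio, SD, n = 4). TRIM63 is a ubiquitin ligase of muscle atrophy. In the thin filament and assembly list 5 of 15 were lower and 0 higher, with a median of -0.29, and without array 2 the number lower was 3. CRYAB, a small heat shock protein that binds desmin, fell by 0.61 ± 0.04, UNC45B, the myosin chaperone, by 0.58 ± 0.40, KLHL41 by 0.55 ± 0.08, and the leiomodins LMOD2 and LMOD3, which nucleate actin, by 0.51 ± 0.21 and 0.48 ± 0.05 (log2 ratio, SD, n = 4).

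Of 7 tested intermediate filament and linker genes 2 were lower and 0 higher, with a median of -0.12, and without array 2 or array 3 the number lower was 1. NES, the nestin of myoblasts and young myotubes, fell by 1.11 ± 0.58 and SYNC, which links desmin to the membrane complex, by 0.39 ± 0.12 (log2 ratio, SD, n = 4). Of 14 tested nonmuscle relatives and adhesion genes 1 was lower, PDLIM2 (-0.48 ± 0.08, SD, n = 4), and 0 were higher, with a median of 0.08. Without array 2 the nonmuscle list had 1 lower and 1 higher. NEBL, the short nebulin relative of heart and nonmuscle cells, was not well above background on any array. Over the 5 lists, chosen with earlier results known, 18 of 67 tested genes were lower and 1 was higher, against the 5.42% and 3.31% of all tested genes. Of these 19 genes 14 were called with any 1 array left out. Without array 2 PDLIM7, TRIM54, UNC45B, LMOD2 and SYNC had adjusted p = 0.108, 0.0726, 0.112, 0.0688 and 0.0688 (limma), and apart from LMOD2 they also lost the call without array 3 (PDLIM7 0.122, TRIM54 0.06, UNC45B 0.119 and SYNC 0.0592). PDLIM7 without array 1 (0.058) and UNC45B without array 4 (0.0742) were not called either.

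**Figure D4:**
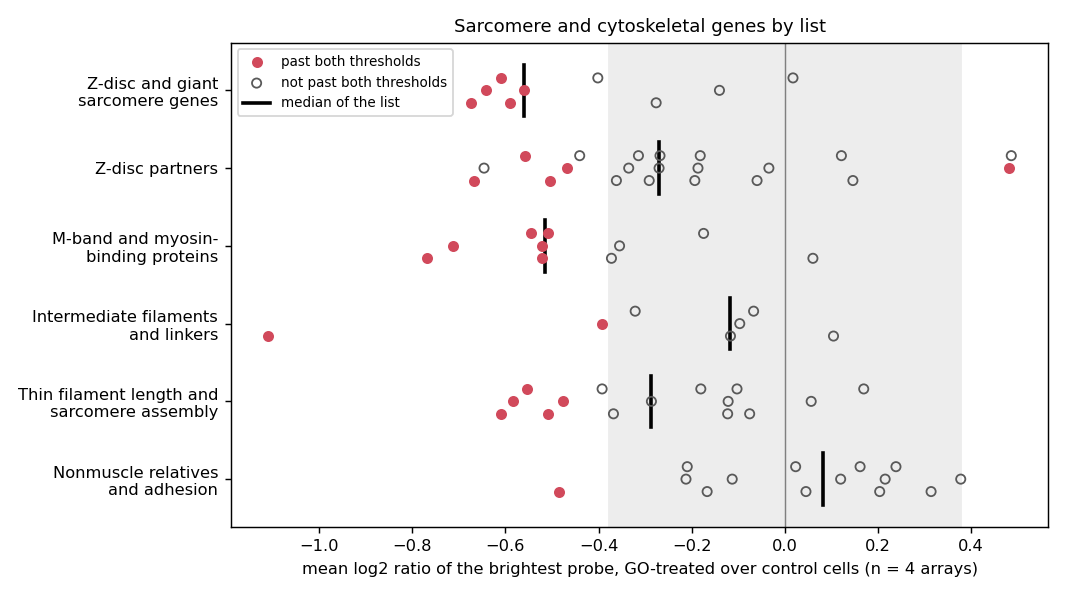
Mean log2 ratio (n = 4 arrays) of the brightest probe of each tested gene, in the Z-disc and giant sarcomere genes (top row, 9 genes, those named by description included) and the 5 related lists. Filled points passed both thresholds, vertical black bars are medians and the grey band spans changes smaller than 1.3-fold; the medians run from -0.56 in the top row to 0.08 in the nonmuscle relatives.

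Marks of the stage of the culture moved on the same arrays. MYOG, the transcription factor of differentiating myocytes, fell by 0.40 ± 0.11 and MYF5, that of committed myoblasts, by 0.93 ± 0.04 (log2 ratio, SD, n = 4; adjusted p = 0.0123 and 0.00102, limma with Benjamini-Hochberg adjustment). MYOG was not called without array 2 or array 3 (adjusted p = 0.0649 and 0.0544, limma). Its other probe, at a log2 ratio of -0.36, was under the fold threshold and not called. Counts of markers stand beside the 5.42% of all tested genes that were lower and the 3.31% that were higher. Of 9 tested myotube markers 5 were lower and 0 higher, and their summed signal ran from 148297 to 206050 in control cells and from 89664 to 125882 in GO-treated cells. Of 7 tested satellite cell and myoblast markers 5 were lower and 0 higher, with sums of 17378 to 21801 and 10592 to 14826. MYOD1 (log2 ratio -0.36, its other probe -0.06) and PAX3 (0.07) were not called. The 5 lower were CHRNA1, NCAM1, ITGA7, CDH15 and MYF5. Without array 2 or array 3 only 3 of these 5 were still called, ITGA7 (adjusted p = 0.0705 and 0.0713) and CDH15 (0.106 and 0.113, limma) being lost, and CDH15 was also lost without array 4 (0.0785). PAX7, which marks satellite cells, was not well above background. Of 6 fibroblast markers, each by its brightest probe, 0 were lower and 1 was higher, with sums of 193915 to 278747 in control and 191326 to 258604 in GO-treated cells. The 1 higher, PDGFRA, was not called without array 2 (adjusted p = 0.074, limma). Other probes of these markers differed: a second DCN probe was called higher at a log2 ratio of 0.42, against 0.04 for the brightest. Tested probes ran from -0.18 to 0.37 for COL3A1 and from -0.20 to 0.32 for COL1A1. Smooth muscle markers gave 1 lower and 1 higher of 4 tested, with sums of 78650 to 105503 and 57308 to 74697. Such a sum is weighted toward the brightest probes, and the median log2 ratio of these 4 genes was 0.18. Only ACTG2 (-0.47) was below 0, while MYH11 (0.21) and SMTN (0.16) were above 0 and not called. The 1 higher, CNN1 (0.50), was not called without array 3 (adjusted p = 0.0586, limma). Cardiac markers gave 1 lower of 5 tested, with sums of 16617 to 22750 and 12346 to 15838. The 1 lower was MYH6 (-0.65), whose other probe (-0.25) was not called. TNNT2 (-0.32) and TNNI3 (-0.22) were below 0, NPPA (0.20) and NPPB (0.14) above 0, and none of these was called. Leukocyte markers gave 0 of 3 tested, with sums of 14010 to 17147 and 15582 to 21890. Adipocyte and endothelial markers were not tested, since 0 of 4 in each list were well above background on all arrays. The part of these changes in those of the Z-disc genes was not tested.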

How the data were processed

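Labelled cRNA of GO-treated (Cy5) and control (Cy3) equine satellite cells was measured on 4 two-color arrays. The authors deposited Feature Extraction output (version 10.10.1.1 per the file headers, build EquCab1): intensity values of each channel, from which background had been subtracted and which had been detrended and dye-normalized (linear and lowess), and log10 ratios of Cy5 over Cy3. The deposited flag columns are other values, marking spots as well above background, saturated or outliers. The authors' own p-values were not used, and their series table was not used.

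The log10 ratios were converted to log2. The 1417 control spots and outlier spots (10 to 19 per array) were left out, and repeat spots were averaged. The filter kept 26831 of 43603 probes, those that all 4 arrays showed well above background in the control or in the GO channel. They were tested with limma (version 3.58.1, R version 4.3.3), using lmFit on an intercept, eBayes and Benjamini-Hochberg adjustment. The procedure was also run on simulated ratios with independent noise. Those had no dye effect and no error shared by an array, so that run bears on neither. Thresholds were those of the methods, which do not name the test. At them the study reported far fewer transcripts than the 1505 probes lower and 894 higher here. NEB, ACTN3, MYOT, DES and ACTN2 are not in its table of changed genes. The ratio pairs the channels of an array. The correlation of channel deviations was 0.48 to 0.86 within arrays and -0.54 to 0.24 between arrays. Between 57.4% and 68.9% of spots per channel and array were well above background. No member probe was saturated or an outlier. The number of arrays limits precision.

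Symbols came from the files for 24949 probes. A further 1684 and 419 probes were named by gene number or accession through the RefSeq table of the TB-T2T assembly, and 62 by description, while 16489 stayed unnamed. The genes named were all 10 members with every probe and, from each related list, those past both thresholds (at most the 6 largest changes). The relatives ACTN1, ACTN4, MYOZ3 and NEBL were named too, as were MYOG and MYF5. VIM, NEXN, ITGA7, CDH15, PDGFRA, DCN, COL3A1, COL1A1 and CNN1 were added after their values were seen. So were CHRNA1, NCAM1, MYOD1, PAX3, ACTG2, MYH11, SMTN, MYH6, TNNT2, TNNI3, NPPA and NPPB. Members and lists were chosen with earlier results of these data known. Differences between genes were tested by exact sign flips over arrays, with the brightest probe of each gene, on pairs chosen after the ratios were seen. Alternatives were normexp (offset 50) with loess, median centring with or without lowess, other filters, a plain one-sample test, no pairing, array weights, the mean over probes of a gene, and leaving out each array.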

Additional observations from a re-analysis of the deposited data

Results flagged for a closer look

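On 4 of the 14 probes 1 array stood apart, with a gap to its nearest neighbour that took up most of the range of the 4 arrays. The ACTN3 probe at base 2538 was highest on array 1, at a log2 ratio of -0.26 against -0.73 to -0.65 on the others. MYOZ2 was lowest on array 1, at -0.41 against -0.24 to -0.23. TCAP was lowest on array 4, at -0.96, and LDB3 was lowest there too, at -1.0, where its signal was close to background. Chance marks about 5% of groups of this size in this way, and probes on the same array are not independent of each other.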

How the results depend on the processing

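The 10 probes named by symbol kept a mean log2 ratio below 0 under every alternative run. The other filters, the plain one-sample test and the unpaired fit leave these means unchanged by construction, so their sign could not change there. Only the other normalizations, the array weights and leaving out an array could move them. The calls did not all hold. Against 5 probes and 4 genes past both thresholds, 0 probes and 0 genes passed without the filter on dim probes, with the plain one-sample test and with no replicate block, that is without the pairing of the channels by array. In the unpaired fit NEB had an adjusted p of 0.123, DES 0.12 and the brighter MYOT probe 0.0774 (limma). Over the 5 related lists 10, 3 and 4 genes passed under those alternatives, against 19. Shares of all probes or genes called under those alternatives were not counted. Leaving out 1 array gave 2 to 6 probes, 2 to 4 genes and 15 to 23 genes of the related lists, the lowest each time without array 2. Without array 2 the adjusted p of DES was 0.0545, of ACTN3 0.0531, of the second MYOT probe 0.0531 and of ACTN2 0.0922 (limma). Normexp with loess and median centring without lowess each called 4 probes, array weights 6, and the remaining filters and centring 5. The causes were not tested. The median of all tested probes moved by less than 0.1 (log2) under each scaling, which holds it near 0 by design. LDB3, near background, has no result that these arrays can settle.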
